A study of Mus musculus with 12 samples.

Results

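The integrated stress response and the unfolded protein response were followed through 10 genes, namely Atf4, Ddit3, Trib3, Asns, Chac1 and Sesn2 for the ATF4 arm and Xbp1, Hspa5, Herpud1 and Dnajb9 for the endoplasmic reticulum (ER) arm. The genes were taken by their names from the 55862 genes of the deposited expression table, and all 10 were found in it. A further short entry that is also named Ddit3 was at 0 in every sample and was not used.

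Both responses are programmes by which cells adapt to trouble in making proteins. In the integrated stress response, kinases that sense amino acid shortage, heme shortage, double-stranded RNA or ER stress phosphorylate the translation factor eIF2α, which lowers general translation while raising translation of ATF4, a transcription factor for amino acid metabolism and for stress genes such as Ddit3 (CHOP). In the unfolded protein response, the ER membrane proteins PERK, IRE1 and ATF6 sense unfolded proteins, and their outputs are eIF2α phosphorylation, splicing of Xbp1 mRNA and transcription of ER chaperones. Astrocytes are secretory and metabolically flexible cells in which both programmes are known to operate.

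Total RNA of 12 mouse samples was sequenced, with 3 samples for each of the 4 groups. Cortical astrocytes in primary culture from C57BL/6 pups (ASTs) were grown as a monolayer in medium with serum and taken at day 0, and A-iSCs were such cells after 5 days as floating spheres on agarose-coated dishes. P56-NPCs were a suspension dissociated from the subependymal zone of adult C57BL/6J mice and P0-NPCs a suspension dissociated from the hippocampus of newborn C57BL/6J mice, neither of them sorted. No transgene or drug was named for any group, and the labels do not say whether the 3 samples of a group came from separate cultures or animals. The study's methods speak of independent experiments in general and do not tie them to the sequenced samples, so that p-values here measure the spread between these samples, which may be technical.

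Expression was given as FPKM, that is, fragments divided by the length of the gene and the size of the library, and 17077780 to 24452419 fragments were recovered per sample. The NPC labels were checked against marker genes. Nestin (Nes), a progenitor marker, was at 3.76 ± 0.246 FPKM in P56-NPCs and at 195.8 ± 13.4 FPKM in ASTs (SD, n = 3), and the summed level of 6 oligodendrocyte markers was 9102 to 10443 FPKM in P56-NPCs against at most 83.2 FPKM in any sample of the other groups. The sum of 5 choroid plexus markers was 741 to 3817 FPKM in the NPC samples and at most 4.78 FPKM in the cultured samples. In A-iSCs, 7 microglia markers summed to 1331 to 1679 FPKM against 142 to 159 FPKM in ASTs, and 8 astrocyte markers to 1211 to 2466 FPKM against 143 to 161 FPKM. A set of 7 pericyte and fibroblast markers summed to 156 to 210 FPKM in ASTs, mostly from the collagen gene Col1a1 (158 ± 24.2 FPKM, SD, n = 3), and to 8.33 to 9.64 FPKM in A-iSCs, with 12.4 to 17.7 FPKM in P56-NPCs and 164 to 169 FPKM in P0-NPCs. P0-NPCs also had the highest sums of 8 neuron markers, 774 to 945 FPKM against 88.2 to 124 FPKM in ASTs and at most 265 FPKM elsewhere, and of 5 endothelial markers, 69.6 to 71.0 FPKM against at most 3.78 FPKM elsewhere, with Cldn5 at 0 in ASTs. The neuron sum came mostly from Tubb3 and Stmn2, at 634 and 109 FPKM in P0-NPCs and 40.7 and 53.8 FPKM in ASTs (means). Snap25, Syt1, Map2, Slc17a7 and Gad1 had their highest mean in P56-NPCs, and Rbfox3, Tubb3 and Stmn2 in P0-NPCs. Mitochondrial genes took 16.5 to 17.6% of the fragments of P56-NPCs and 2.94 to 7.03% elsewhere. The part of these shifts in the results that follow was not tested, and in such bulk samples fewer cells of a type and less RNA per cell cannot be told apart.

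The promoters of the 10 genes were read for the sequence elements that the factors of both programmes are known to bind. RefSeq windows on GRCm38.p6, from 250 bases before to 50 bases after the transcript start, were matched for 10 of 10 genes and searched on both strands. The ER stress element (ERSE), which is CCAAT followed after any 9 bases by CCACG, was found in 1 of 10 windows, that of Hspa5, and in 0.119% of all 32851 windows. A shorter variant, ERSE-II, which is ATTGG followed after any 1 base by CCACG, was searched after the other motifs and was found in Herpud1 alone among the 10 and in 0.0365% of all windows. The composite C/EBP-ATF element TGATGNAAN, through which ATF4 is known to act, was present in Trib3, Asns, Chac1 and Herpud1, hence in 4 of 10 windows, and in 3.95% of all windows.

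The 250 bases before the transcript start are shown for Hspa5 (chr2:34771840-34772089, plus strand), Herpud1 (chr8:94386179-94386428, plus strand), Asns (chr6:7693210-7693459, minus strand) and Chac1 (chr2:119350992-119351241, plus strand), because they carry the matches in front of a RefSeq start. Capitals mark the ERSE in Hspa5, the ERSE-II and the composite element in Herpud1, and the composite element in Asns and Chac1, with the sequence read along the gene, so that the composite element of Herpud1 and Chac1 appears as its reverse complement.

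Hspa5: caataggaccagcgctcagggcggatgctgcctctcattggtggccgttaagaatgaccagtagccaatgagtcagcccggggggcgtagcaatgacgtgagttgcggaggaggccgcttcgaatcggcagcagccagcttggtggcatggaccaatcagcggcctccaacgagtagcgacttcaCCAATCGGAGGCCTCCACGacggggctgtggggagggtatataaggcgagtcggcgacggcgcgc

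Herpud1: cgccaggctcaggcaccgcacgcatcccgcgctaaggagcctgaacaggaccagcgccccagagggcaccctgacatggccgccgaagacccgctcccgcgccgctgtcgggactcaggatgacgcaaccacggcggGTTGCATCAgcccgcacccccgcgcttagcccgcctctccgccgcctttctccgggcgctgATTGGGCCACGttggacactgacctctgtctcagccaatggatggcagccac

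Asns: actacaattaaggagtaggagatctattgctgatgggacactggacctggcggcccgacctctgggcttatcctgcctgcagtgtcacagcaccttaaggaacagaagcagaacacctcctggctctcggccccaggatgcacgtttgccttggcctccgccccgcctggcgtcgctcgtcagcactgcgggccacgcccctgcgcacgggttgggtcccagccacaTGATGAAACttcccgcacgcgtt

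Chac1: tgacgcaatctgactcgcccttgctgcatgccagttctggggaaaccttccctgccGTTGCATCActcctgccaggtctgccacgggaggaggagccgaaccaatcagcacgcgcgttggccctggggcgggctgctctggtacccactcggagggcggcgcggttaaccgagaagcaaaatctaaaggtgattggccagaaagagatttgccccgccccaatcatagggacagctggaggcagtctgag

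The Hspa5 match began 65 bases before the RefSeq start. The GENCODE models that give Hspa5, Asns and Chac1 their positions start further upstream, and the ERSE of Hspa5 and the composite match of Asns lie within them. In Herpud1 the ERSE-II match began 52 bases and the composite match 113 bases before the start, so this promoter held an element of each arm. The composite matches of Asns and Chac1 began 23 and 194 bases before the start, and the Trib3 match, TTTACATCA on the strand of the gene, lay 14 bases after it. The last 5 bases of the ERSE, CCACG, were found in 7 of 10 windows and in 32.8% of all windows, and they are also part of the ERSE and ERSE-II matches. Neither TGACGTGG (UPRE, 0.676% of all windows) nor TGACGTCA (ATF/CRE core, 1.79%) was found in the 10 windows. A match describes letters and not binding.

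**Figure D1:**
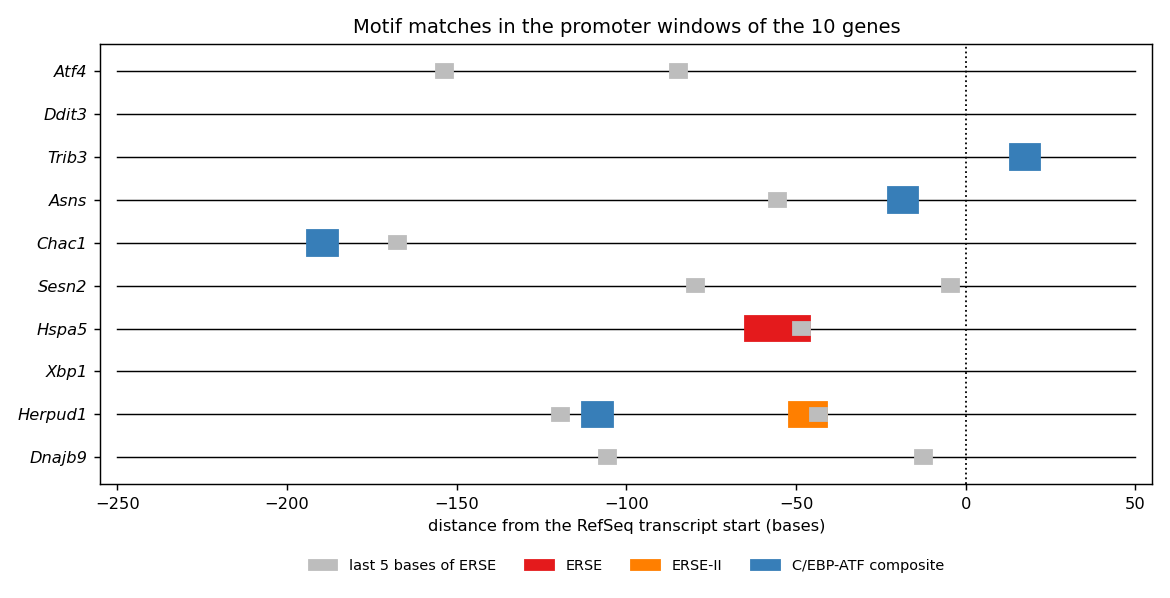
Positions of motif matches in the promoter windows of the 10 genes, with the distance from the RefSeq transcript start in bases on the x axis (dotted line at the start) and 1 row per gene. Blue boxes are composite C/EBP-ATF matches, found in 4 genes, the red box is the ERSE of Hspa5, the orange box the ERSE-II of Herpud1, and grey boxes are matches to the last 5 bases of the ERSE, found in 7 genes.

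In the comparison of A-iSCs with ASTs, the 10 genes did not move as a block. ASTs were taken at day 0 and A-iSCs at day 5, without a monolayer group at day 5. Sphere culture and time in culture therefore cannot be told apart here. Asns, the enzyme that makes asparagine, fell most, 3.15-fold, and Chac1, Sesn2 and Herpud1 were lower too, whereas Ddit3 and Dnajb9 were higher. In all, 2 genes were higher and 4 lower at a Benjamini-Hochberg adjusted p under 0.05, and 4 were not called. Over all 14087 genes tested, 25.2% were higher and 29.6% lower in A-iSCs. The median log2 fold change of the 10 genes was −0.36, beside −0.059 over all genes. Asns was the only one of the 6 called under all 15 alternatives tried. The 6 calls became 1 without AST replicate 1, 2 without AST replicate 3, 3 without AST replicate 2 or A-iSC replicate 2, 3 without the filter on low values, and 3 (2 higher, 1 lower) when samples were scaled to a common sum.

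Both NPC suspensions held less of most of these transcripts than ASTs. In P56-NPCs, 1 of 10 genes was higher (Herpud1, whose direction turned on scaling to a common sum) and 7 were lower, beside 39.1% higher and 39.8% lower of 15146 genes tested. In P0-NPCs, 0 were higher and 9 lower, beside 38.1% higher and 40.9% lower of 15010 genes. Sesn2, an inhibitor of the growth kinase mTORC1, had the largest decline of the 10 on the log2(FPKM + 1) scale in either suspension (−2.66 and −2.94), a scale that damps the changes of low genes such as Trib3. Genes entered a comparison with a mean of at least 1 FPKM in either group, and Trib3 and Chac1 passed this filter against the suspensions only through the cultured cells, where they are high, so that their calls there are favoured by the filter and are not used as support. Of the 8 genes at 1 FPKM or more in both groups, 1 was higher and 5 lower in P56-NPCs (median log2 fold change −1.08, beside −0.030 over all genes tested), and 0 higher and 7 lower in P0-NPCs (−0.99, beside −0.068). These comparisons share the AST samples, as does the comparison with A-iSCs.

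A-iSCs stood above the suspensions for most members. Relative to P56-NPCs, 7 of 10 were higher and 1 lower, Herpud1, against 30.1% higher and 30.9% lower of 15044 genes. Relative to P0-NPCs, 7 were higher and 0 lower, against 31.5% and 33.6% of 15170 genes. Among the 8 genes at 1 FPKM or more in both groups, 5 were higher and 1 lower than in P56-NPCs, and 5 higher and 0 lower than in P0-NPCs. Between the suspensions, 8 of the 10 genes passed the filter, and Trib3 and Chac1 did not. Of those 8, 4 were higher and 3 lower in P56-NPCs than in P0-NPCs, beside 39.7% higher and 39% lower of 15394 genes. This split rested on the scaling, since 1 was higher and 6 lower when samples were scaled to a common sum.

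**Figure D2:**
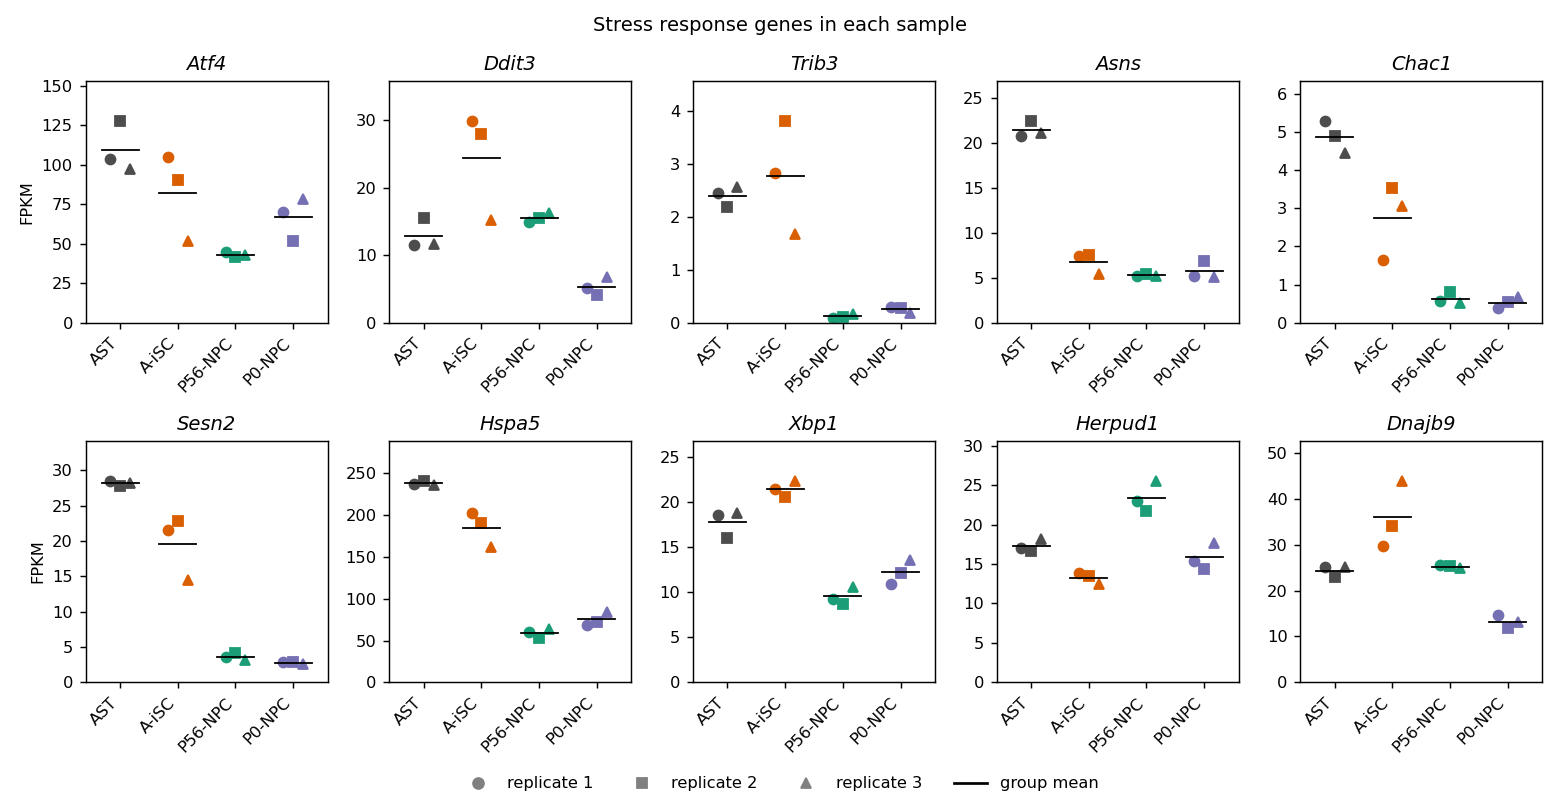
FPKM of the 10 genes in each of the 12 samples, 1 panel per gene with its own linear y axis from 0, groups on the x axis, a symbol per replicate and a black line at the group mean (n = 3). Asns separates ASTs (20.7 to 22.4 FPKM) from the other 3 groups (at most 7.52 FPKM), and A-iSC replicate 3 is the lowest A-iSC sample for 7 of 10 genes.

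Atf4 (ENSMUSG00000042406, GRCm38 chromosome 15, 80255184 to 80257541) encodes the effector of eIF2α phosphorylation, which is governed mainly at translation, so that its mRNA is only a part of its regulation. The level was 103, 128 and 97.3 FPKM in ASTs, and in A-iSCs it was 105, 90.7 and 51.6 FPKM. It was 44.6, 41.4 and 42.9 FPKM in P56-NPCs and 69.9, 52.0 and 78.6 FPKM in P0-NPCs. One A-iSC sample lay within the AST range, another between it and the P0-NPC samples, and replicate 3 just below the lowest P0-NPC sample. The change from ASTs to A-iSCs was −0.46 on the log2(FPKM + 1) scale (95% interval −1.09 to 0.17, adjusted p = 0.187) and was not called, which leaves room for a decline of more than 2-fold as well as for none. P56-NPCs were lower than ASTs by a log2 fold change of −1.32 (SE 0.11, adjusted p = 2.81e-05) and P0-NPCs by −0.72 (SE 0.17, adjusted p = 0.00581), and P56-NPCs were lower than P0-NPCs (−0.61, adjusted p = 0.00492). When samples were scaled to a common sum, the P0-NPC difference was −0.30 and no longer called (adjusted p = 0.0766). The higher level in A-iSCs than in P56-NPCs (0.86, adjusted p = 0.0199) was lost without A-iSC replicate 1 or 2 or without any 1 of the P56-NPC samples, with adjusted p-values up to 0.0690.

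Ddit3 (ENSMUSG00000025408, chromosome 10, 127290774 to 127296288) encodes CHOP, a transcription factor of prolonged stress and a target of ATF4. ASTs held 11.6, 15.6 and 11.6 FPKM, and A-iSCs 29.9, 28.0 and 15.3 FPKM. P56-NPCs were at 14.9, 15.5 and 16.3 FPKM and P0-NPCs at 5.13, 4.07 and 6.74 FPKM. A pair of A-iSC samples stood above every other sample of the study, while A-iSC replicate 3 lay just below the highest AST sample. The rise from ASTs to A-iSCs was 1.89-fold in means and 0.82 in log2 (SE 0.26, adjusted p = 0.0298). It lost its call without AST replicate 1 or 3 or A-iSC replicate 1 or 2, with values of 0.65 to 0.76 and adjusted p-values of 0.0870 to 0.1005, and without the filter on low values (adjusted p = 0.0685). P0-NPCs were lower than ASTs (−1.15, SE 0.17, adjusted p = 0.000428), A-iSCs (A-iSCs higher by 1.97, adjusted p = 0.000364) and P56-NPCs (P56-NPCs higher by 1.41, adjusted p = 5.26e-05). P56-NPCs and ASTs differed by 0.26 (95% interval −0.021 to 0.55, adjusted p = 0.0789), a difference that was called without AST replicate 2 (0.39, adjusted p = 0.000754) and with size factors computed without mitochondrial genes (0.32, adjusted p = 0.0382), and that turned to −0.21 on scaling to a common sum. The end of Ddit3 overlaps Mars, a tRNA synthetase gene on the opposite strand with up to 30.1 FPKM, by 68 bases, and fragments from this stretch cannot be told apart where strand was not used in counting.

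Trib3 (ENSMUSG00000032715, chromosome 2, 152337422 to 152344032) encodes a pseudokinase that is induced by ATF4 and CHOP. It was weakly expressed, at 2.44, 2.18 and 2.56 FPKM in ASTs, and in A-iSCs it was 2.83, 3.80 and 1.67 FPKM. P56-NPCs held 3 to 6 fragments per sample (0.0813, 0.117 and 0.171 FPKM) and P0-NPCs 11 to 17 fragments (0.288, 0.275 and 0.188 FPKM). The cultured cells therefore formed a higher level apart from both suspensions, and within it the A-iSC samples lay on both sides of the ASTs. From ASTs to A-iSCs the difference was 0.11 (95% interval −0.38 to 0.60, adjusted p = 0.681), and it turned to −0.086 without A-iSC replicate 2. Counted fragments gave an AST level 19.5 times that of P56-NPCs (exact 95% interval 11.2 to 37.0) and 9.60 times that of P0-NPCs (6.93 to 13.6), intervals that cover counting error only. The log2 fold changes with a pseudocount of 1 were smaller, −1.59 and −1.44, and with a pseudocount of 0.1 they were −3.50 and −2.84.

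Asns (ENSMUSG00000029752, chromosome 6, 7675169 to 7693254) encodes asparagine synthetase, a classical target of ATF4 under amino acid shortage, and its promoter carries the composite element shown before. The 3 AST samples were at 20.7, 22.4 and 21.1 FPKM and the A-iSC samples at 7.40, 7.52 and 5.46 FPKM. P56-NPCs held 5.20, 5.38 and 5.17 FPKM and P0-NPCs 5.19, 6.82 and 5.14 FPKM. ASTs thus stood alone above the 9 other samples. The fall from ASTs to A-iSCs was −1.53 in log2 (SE 0.14, adjusted p = 9.29e-05), and it was called under all 15 alternatives, between −1.68 and −1.38. P56-NPCs (−1.84, adjusted p = 3.26e-07) and P0-NPCs (−1.75, adjusted p = 2.92e-06) were lower than ASTs too. A-iSCs differed from P56-NPCs by 0.31 (95% interval 0.0044 to 0.61, adjusted p = 0.0734) and from P0-NPCs by 0.21 (−0.15 to 0.58, adjusted p = 0.264), and the suspensions from each other by −0.095 (−0.33 to 0.14, adjusted p = 0.416). Without A-iSC replicate 3 the differences of A-iSCs from P56-NPCs (0.44, adjusted p = 0.000936) and from P0-NPCs (0.34, adjusted p = 0.0363) were called.

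Chac1 (ENSMUSG00000027313, chromosome 2, 119351229 to 119354381) encodes an enzyme that degrades glutathione and is induced by ATF4. ASTs held 5.28, 4.91 and 4.44 FPKM, A-iSCs 1.64, 3.55 and 3.05 FPKM, P56-NPCs 0.563, 0.799 and 0.519 FPKM and P0-NPCs 0.374, 0.546 and 0.665 FPKM. The groups formed 3 steps without overlap, ASTs over A-iSCs over both suspensions. A-iSCs were lower than ASTs, by a log2 fold change of −0.69 (SE 0.21, adjusted p = 0.0255), but not past the threshold without AST replicate 1 or 2 (adjusted p = 0.0806 and 0.0681), without the filter (0.0619) or on scaling to a common sum (−0.55, 0.103). Relative to ASTs, the difference was −1.85 in P56-NPCs and −1.95 in P0-NPCs, and with a pseudocount of 0.1 it was −2.79 and −3.01. Only 14 to 30 fragments per sample stood behind the levels in the suspensions.

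Sesn2 (ENSMUSG00000028893, chromosome 4, 132492032 to 132510501) encodes sestrin 2, a leucine sensor that restrains mTORC1 and is a target of both ATF4 and p53. ASTs were at 28.5, 27.7 and 28.3 FPKM and A-iSCs at 21.6, 22.8 and 14.5 FPKM, with 3.65, 4.14 and 3.14 FPKM in P56-NPCs and 2.91, 2.89 and 2.60 FPKM in P0-NPCs. Cultured cells lay far above the suspensions, with ASTs on top. The log2 fold change to A-iSCs was −0.52 (SE 0.17, adjusted p = 0.0365), and to the suspensions −2.66 (SE 0.09, adjusted p = 2.93e-07) and −2.94 (SE 0.08, adjusted p = 4.10e-08). The A-iSC call was lost without any 1 of the AST samples (adjusted p = 0.0760 to 0.0998), without the filter (0.0680), with size factors that left out mitochondrial genes (−0.45, 0.0690) and on scaling to a common sum (−0.36, 0.104). P56-NPCs were higher than P0-NPCs by 0.29 (adjusted p = 0.0252), a difference that was lost without P56-NPC replicate 1 or 2 or P0-NPC replicate 3 (adjusted p = 0.0695 to 0.0784), without the filter (0.0558) and with all 4 groups in the model (0.0924), and that reversed to −0.42 on scaling to a common sum (adjusted p = 0.00671).

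**Figure D3:**
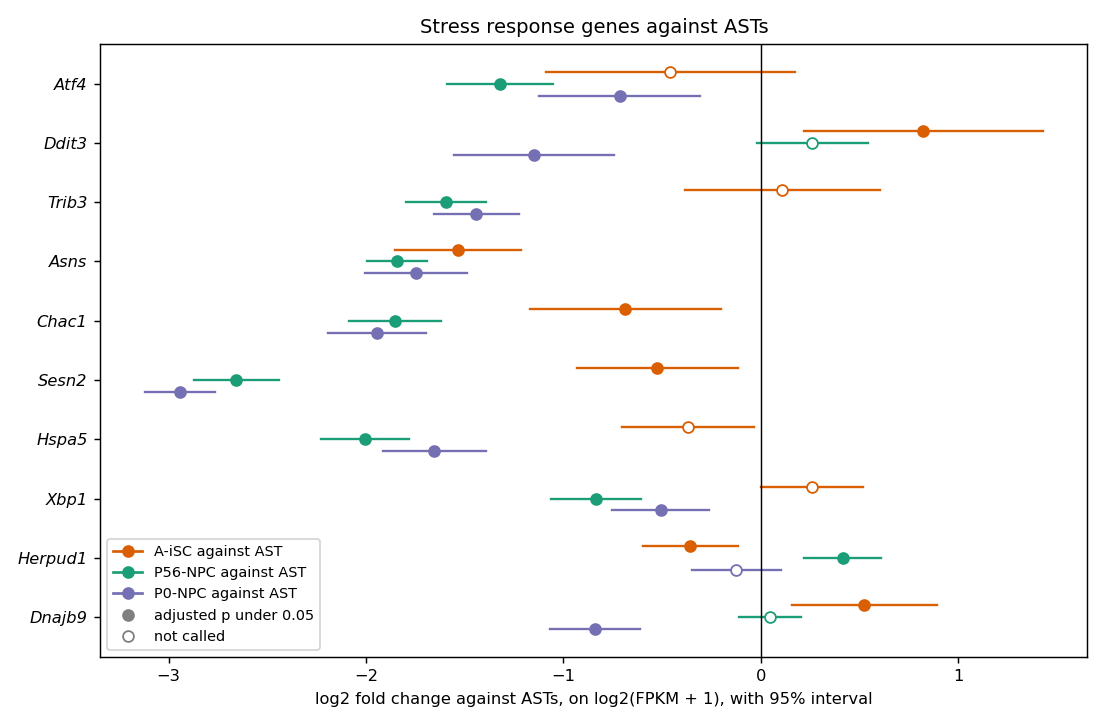
Log2 fold changes of the 10 genes against ASTs on log2(FPKM + 1), with 95% intervals from limma (n = 3 per group), for A-iSCs (orange), P56-NPCs (green) and P0-NPCs (violet). Filled points are past an adjusted p of 0.05. The orange points lie between −1.53 and 0.82, while Sesn2 reaches −2.94 in P0-NPCs and Herpud1 is the only gene called higher in a suspension (0.41 in P56-NPCs, or −0.067 on scaling to a common sum).

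In the ER arm, Xbp1 (ENSMUSG00000020484, chromosome 11, 5520659 to 5525893) encodes the transcription factor that IRE1 activates by splicing its mRNA. ASTs were at 18.6, 16.05 and 18.7 FPKM, A-iSCs at 21.4, 20.6 and 22.3 FPKM, P56-NPCs at 9.29, 8.73 and 10.6 FPKM and P0-NPCs at 10.9, 12.2 and 13.6 FPKM. All A-iSC samples lay above all AST samples and both above the suspensions, yet the difference between A-iSCs and ASTs, 0.26 (95% interval −0.00071 to 0.52, adjusted p = 0.0840), was not called. It was called with size factors without mitochondrial genes (0.33, adjusted p = 0.0362) and with all 4 groups in the model (adjusted p = 0.0435). P56-NPCs (−0.83, adjusted p = 0.000147) and P0-NPCs (−0.51, adjusted p = 0.00253) were lower than ASTs, the latter not on scaling to a common sum (−0.12, adjusted p = 0.468). A-iSCs exceeded P56-NPCs by 1.09 (adjusted p = 9.13e-05) and P0-NPCs by 0.77 (adjusted p = 0.000593). P56-NPCs were lower than P0-NPCs (−0.33, adjusted p = 0.0160), a call lost without P56-NPC replicate 1 or 2 or P0-NPC replicate 3 (adjusted p = 0.0510 to 0.0550). The share of spliced Xbp1 mRNA was not analysed here, since the values are per gene.

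Hspa5 (ENSMUSG00000026864, chromosome 2, 34771970 to 34777547) encodes BiP, the main ER chaperone and the gene whose promoter held the full ERSE. It had the highest mean level per length of the 10 genes in each group, although Atf4 was slightly above it in P0-NPC replicate 1, with 237, 241 and 236 FPKM in ASTs, and in A-iSCs it was 203, 191 and 162 FPKM. P56-NPCs held 59.8, 52.5 and 63.8 FPKM and P0-NPCs 69.1, 72.5 and 84.0 FPKM. All A-iSC samples lay under all AST samples, but the difference of −0.37 (95% interval −0.70 to −0.032, adjusted p = 0.0625) was called only with all 4 groups in the model (adjusted p = 0.0165). The suspensions were lower than ASTs by log2 fold changes of −2.01 (P56-NPCs, SE 0.09, adjusted p = 1.27e-06) and −1.65 (P0-NPCs, SE 0.11, adjusted p = 4.16e-06), called under all 15 alternatives each. P56-NPCs were also lower than P0-NPCs (−0.35, adjusted p = 0.0135).

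Herpud1 (ENSMUSG00000031770, chromosome 8, 94386438 to 94395377) encodes an ER membrane protein of ER-associated degradation, the route by which misfolded ER proteins reach the proteasome. Its order of groups departed from the rest, with P56-NPCs on top at 23.0, 21.7 and 25.5 FPKM. ASTs were at 17.0, 16.7 and 18.1 FPKM, P0-NPCs at 15.4, 14.4 and 17.7 FPKM and A-iSCs at 13.9, 13.4 and 12.5 FPKM. P56-NPCs were higher than ASTs (0.41, SE 0.08, adjusted p = 0.00250), A-iSCs (A-iSCs against P56-NPCs −0.77, adjusted p = 0.000514) and P0-NPCs (0.54, adjusted p = 0.00109), but scaling to a common sum gave −0.067 (adjusted p = 0.627) against ASTs, −0.13 (adjusted p = 0.304) for A-iSCs against P56-NPCs and −0.34 (adjusted p = 0.00637) for P56-NPCs against P0-NPCs. The lower level in A-iSCs than in ASTs (−0.36, SE 0.10, adjusted p = 0.0217) was lost with the replicate number as a block (adjusted p = 0.0536), without AST replicate 1 or 3 or A-iSC replicate 2 (adjusted p = 0.0573 to 0.103), with size factors without mitochondrial genes (−0.28, adjusted p = 0.0540) and on scaling to a common sum (−0.20, adjusted p = 0.270). P0-NPCs and ASTs differed by −0.12 (95% interval −0.35 to 0.10, adjusted p = 0.267).

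Dnajb9 (ENSMUSG00000014905, chromosome 12, 44205559 to 44210326) encodes ERdj4, a BiP co-chaperone and a target of XBP1. A-iSCs had the highest level, 29.8, 34.1 and 43.9 FPKM, over 25.0, 23.0 and 25.0 FPKM in ASTs. P56-NPCs, at 25.5, 25.3 and 24.8 FPKM, lay within a narrow range around ASTs, and P0-NPCs were lowest at 14.7, 11.8 and 13.2 FPKM. Dnajb9 rose from ASTs to A-iSCs by 0.52 (SE 0.16, adjusted p = 0.0250), though the call was lost without any 1 of the AST samples or without A-iSC replicate 2 (adjusted p = 0.0579 to 0.0675). The difference between P56-NPCs and ASTs was 0.048 (95% interval −0.11 to 0.21, adjusted p = 0.528) and turned to −0.44 on scaling to a common sum (adjusted p = 0.00938). P0-NPCs were lower than ASTs (−0.84, SE 0.10, adjusted p = 9.22e-05), A-iSCs (A-iSCs higher by 1.36, adjusted p = 0.000180) and P56-NPCs (P56-NPCs higher by 0.89, adjusted p = 3.01e-05), the last at 0.010 on scaling to a common sum (adjusted p = 0.926).

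Ratios of members within a sample do not depend on how samples were scaled to each other. The ratio of Ddit3 to Atf4 FPKM was 0.112, 0.1196 and 0.122 in ASTs when ordered by size, 0.285, 0.296 and 0.309 in A-iSCs, 0.334, 0.375 and 0.379 in P56-NPCs and 0.0734, 0.0783 and 0.0858 in P0-NPCs. The groups did not overlap, and the A-iSC ratios stayed close together although Ddit3 and Atf4 each varied by about 2-fold among these samples (1.96-fold and 2.03-fold between the lowest and the highest). Ddit3 was thus high relative to Atf4 in A-iSCs and P56-NPCs, at different absolute levels. The ratio of Asns to Atf4 was 0.175 to 0.217 in ASTs, 0.0706 to 0.106 in A-iSCs, 0.117 to 0.130 in P56-NPCs and 0.0654 to 0.131 in P0-NPCs, so that ASTs stood above all others. Sesn2 to Atf4 was 0.217 to 0.291 in ASTs and 0.206 to 0.282 in A-iSCs, which overlapped, and at most 0.1001 in either suspension.

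Within the ER arm, Hspa5 to Dnajb9 was 9.44 to 10.5 in ASTs, 3.70 to 6.82 in A-iSCs, 2.08 to 2.57 in P56-NPCs and 4.70 to 6.37 in P0-NPCs. The chaperone was therefore most abundant relative to its co-chaperone in ASTs, and A-iSCs overlapped P0-NPCs. Hspa5 to Xbp1 was 12.6 to 15.0 in ASTs, 7.27 to 9.46 in A-iSCs and 5.95 to 6.44 in the suspensions. The ratios were chosen with the levels in view and are given without a test, and 3 samples against 3 could not reach a p below 0.1 in an exact permutation test.

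**Figure D4:**
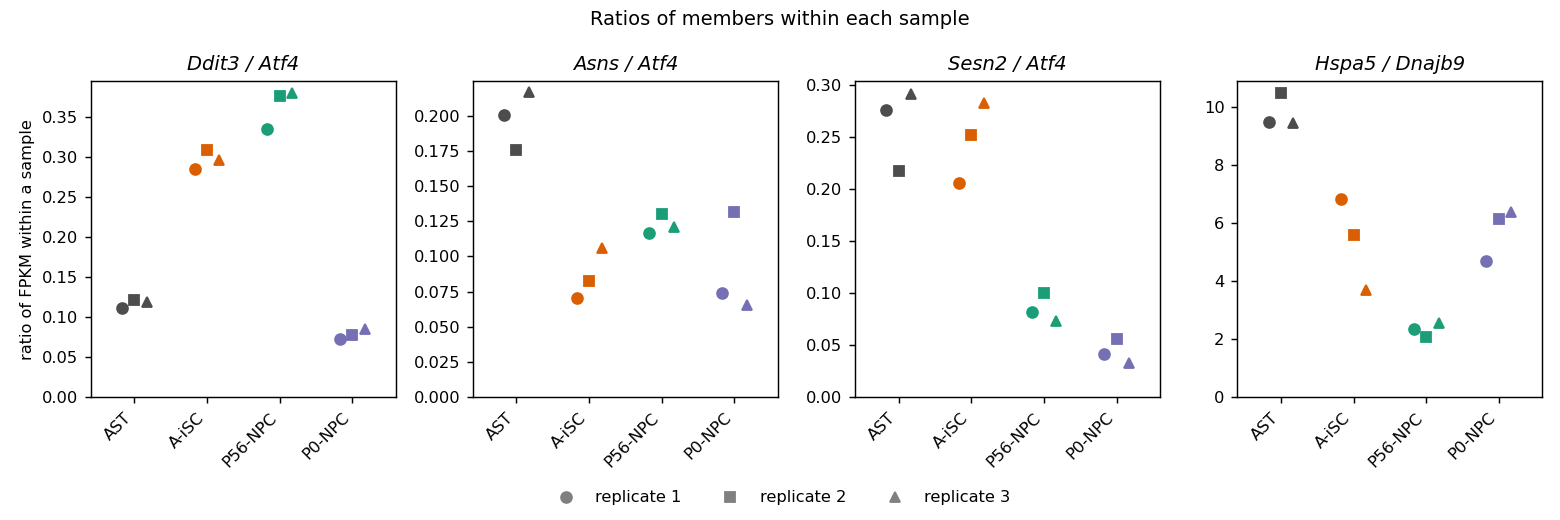
Ratios of FPKM within each sample for Ddit3 over Atf4, Asns over Atf4, Sesn2 over Atf4 and Hspa5 over Dnajb9, with groups on the x axis, a linear y axis from 0 and a symbol per replicate. Ddit3 over Atf4 lies at 0.112 to 0.122 in ASTs and 0.285 to 0.309 in A-iSCs, and Hspa5 over Dnajb9 at 9.44 to 10.5 in ASTs and at most 6.82 elsewhere.

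The A-iSC samples differed among themselves for these genes. A-iSC replicate 3 was the lowest of the 3 for 7 of 10 genes, Atf4, Ddit3, Trib3, Asns, Sesn2, Hspa5 and Herpud1, and the highest for Xbp1 and Dnajb9. The highest sample exceeded the lowest by 2.28-fold for Trib3, 2.17-fold for Chac1, 1.96-fold for Ddit3 and 1.48-fold for Dnajb9, but by 1.09-fold for Xbp1 and 1.12-fold for Herpud1. As a percentage of the mean, the SD over the 10 genes ranged from 4.13% (Xbp1) to 38.6% (Trib3) in A-iSCs, with a median of 21.4%. It ranged from 1.10% (Hspa5) to 17.8% (Ddit3) in ASTs (median 6.40%), from 1.44% (Dnajb9) to 36.8% (Trib3) in P56-NPCs (median 9.07%) and from 6.09% (Sesn2) to 27.7% (Chac1) in P0-NPCs (median 13.8%). Xbp1 varied less in A-iSCs than in ASTs, where its SD was 8.48% of the mean. No test of the spread was made.

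Upstream of ATF4, the kinases that phosphorylate eIF2α were low to moderate. Eif2ak1, the heme-regulated kinase, was at 8.12 FPKM in ASTs, 10.7 in A-iSCs, 9.92 in P56-NPCs and 8.03 in P0-NPCs (means, n = 3), a rise of 0.36 in A-iSCs (adjusted p = 0.0277) that was lost without any 1 of the AST samples or A-iSC replicate 1 (adjusted p = 0.0598 to 0.112). Eif2ak2 (PKR), which binds double-stranded RNA, was at 14.8 and 14.5 FPKM in ASTs and A-iSCs but at 3.26 and 1.66 FPKM in P56-NPCs and P0-NPCs (against ASTs −1.88, adjusted p = 2.69e-05, and −2.57, adjusted p = 4.28e-06). Of the 4 kinases, PKR thus had the largest differences between ASTs and the suspensions. Eif2ak3 (PERK) was at 6.79, 5.16, 4.39 and 4.65 FPKM in the same order of groups and was lower in P56-NPCs (−0.52, adjusted p = 0.00248) and P0-NPCs (−0.46, adjusted p = 0.00569, −0.11 on scaling to a common sum). The A-iSC value of PERK, −0.34 (adjusted p = 0.0892), was called without A-iSC replicate 3 (−0.47, adjusted p = 0.0161). Eif2ak4 (GCN2), the amino acid sensor, was at 3.53, 3.53, 2.34 and 3.69 FPKM and was lower in P56-NPCs (−0.43, adjusted p = 0.0145), not past the threshold without AST replicate 1 or 3 or P56-NPC replicate 1.

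Among 9 genes for these kinases, eIF2α and its phosphatase factors, 1 was higher and 1 lower in A-iSCs, Eif2ak1 and Eif2s1, a smaller share than the 25.2% and 29.6% of all genes. In each suspension 1 was higher and 6 lower, beside 39.1% and 39.8% of all genes in P56-NPCs and 38.1% and 40.9% in P0-NPCs. Eif2s1, which encodes eIF2α itself, fell from 32.7 to 14.8 FPKM (−1.09, SE 0.11, adjusted p = 0.000198) and was lower in P56-NPCs (−2.09, adjusted p = 5.20e-07) and P0-NPCs (−1.66, adjusted p = 1.31e-06). Ppp1r15a (GADD34), the stress-induced subunit that directs eIF2α dephosphorylation, was at 48.0 ± 9.75 FPKM in ASTs and at 29.0 ± 9.92 FPKM (SD, n = 3) in A-iSCs, and at 13.4 and 14.3 FPKM in P56-NPCs and P0-NPCs (−1.75, adjusted p = 2.33e-05, and −1.68, adjusted p = 3.70e-05). The count in A-iSCs varied with the samples and the model. All 4 groups in the model gave 6 called genes and the replicate block 4, and leaving out 1 sample gave 1 to 5 genes in place of 2, the 1 without any of the AST samples and the 5 without A-iSC replicate 3.

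Of the ER sensors, Ern1 (IRE1) was at 1.76, 2.38, 1.47 and 1.72 FPKM and Atf6 at 7.44, 6.38, 5.30 and 2.86 FPKM in that order of groups, and neither was called between A-iSCs and ASTs (0.29, adjusted p = 0.178, and −0.21, adjusted p = 0.429). Atf6 was lower in P0-NPCs than in ASTs (−1.11, adjusted p = 0.000101) and in P56-NPCs (−0.41, adjusted p = 0.0242, lost without AST replicate 1 or 3 or P56-NPC replicate 1 or 2). Of 10 sensor and protease genes, Xbp1 included, 0 were higher and 4 lower in A-iSCs, where 29.6% of all genes were lower. The 4 were the transcription factors Creb3 (57.8 to 20.6 FPKM, −1.45, adjusted p = 0.000117), Creb3l1 (−1.22, adjusted p = 0.00140) and Creb3l2 (−0.68, adjusted p = 0.00136) and the protease Mbtps1 (−0.71, adjusted p = 0.00518, not called on scaling to a common sum). Creb3 was lower in P56-NPCs (−2.08) and P0-NPCs (−2.13) as well, where 8 and 6 of the 10 genes were lower and 0 and 1 higher, beside 39.8% and 40.9% of all genes lower.

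The ER chaperones and folding enzymes, 20 genes that include Hspa5 and Dnajb9, had 2 members higher and 12 lower in A-iSCs, beside 25.2% and 29.6% of all genes, with a median of −0.88 beside −0.059 over all genes tested. The pericyte and fibroblast marker sum given before fell between the same groups, and its part in this list and in the next was not tested. The largest declines were those of Manf (76.6 to 31.2 FPKM, −1.25, adjusted p = 0.000516), a secreted ER stress factor, the disulfide isomerases Pdia6 (128 to 54.4 FPKM, −1.25, adjusted p = 0.000857) and Pdia3 (399 to 195 FPKM, −1.04, adjusted p = 0.00238), and Hsp90b1, which encodes GRP94 (179 to 87.2 FPKM, −1.04, adjusted p = 0.000901). Hspa5, at −0.37 and not called, and Dnajb9, at 0.52, had a smaller value or the other direction. Differences between these genes were not tested. In P56-NPCs 2 were higher and 16 lower (median −1.61), and in P0-NPCs 1 higher and 18 lower (median −1.55), beside 39.8% and 40.9% of all genes lower, Manf again among the most reduced (−2.60 and −2.15).

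Of 21 genes of ER translocation and the vesicle coat, 0 were higher and 13 lower in A-iSCs (median −0.60), beside 29.6% of all genes lower, and 8 were called on scaling to a common sum. The largest declines were those of the signal peptidase subunit Spcs3 (44.1 to 15.2 FPKM, −1.50, adjusted p = 0.000402), the coat protein Sec13 (−1.15, adjusted p = 0.000431) and the translocon subunit Sec61b (−1.003, adjusted p = 0.00342). In P56-NPCs 19 and in P0-NPCs 20 of the 21 were lower and 1 and 0 higher, beside 39.8% and 40.9% of all genes lower. Of 18 genes of ER-associated degradation, Herpud1 included, 3 were higher and 7 lower in A-iSCs, beside 25.2% and 29.6% of all genes. The higher ones were the lectins Edem2 (8.18 to 16.7 FPKM, 0.95, adjusted p = 0.000707) and Os9 (52.3 to 98.3 FPKM, 0.90, adjusted p = 0.000427) and the channel component Derl3 (0.169 to 1.18 FPKM, 0.89), which passed the filter only through A-iSCs, while the segregase gene Vcp fell (123 to 68.6 FPKM, −0.83, adjusted p = 0.00198). Without A-iSC replicate 2, 6 of the 18 were called in place of 10, and 6 on scaling to a common sum. In the suspensions 17 of these genes passed the filter, with 3 higher and 10 lower in P56-NPCs, beside 39.1% and 39.8% of all genes. In P0-NPCs 0 were higher and 14 lower, or 13 of 16 without Rhbdd1, which passed the filter only through ASTs, beside 38.1% and 40.9%, and 8 in place of the 14 were called on scaling to a common sum.

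**Figure D5:**
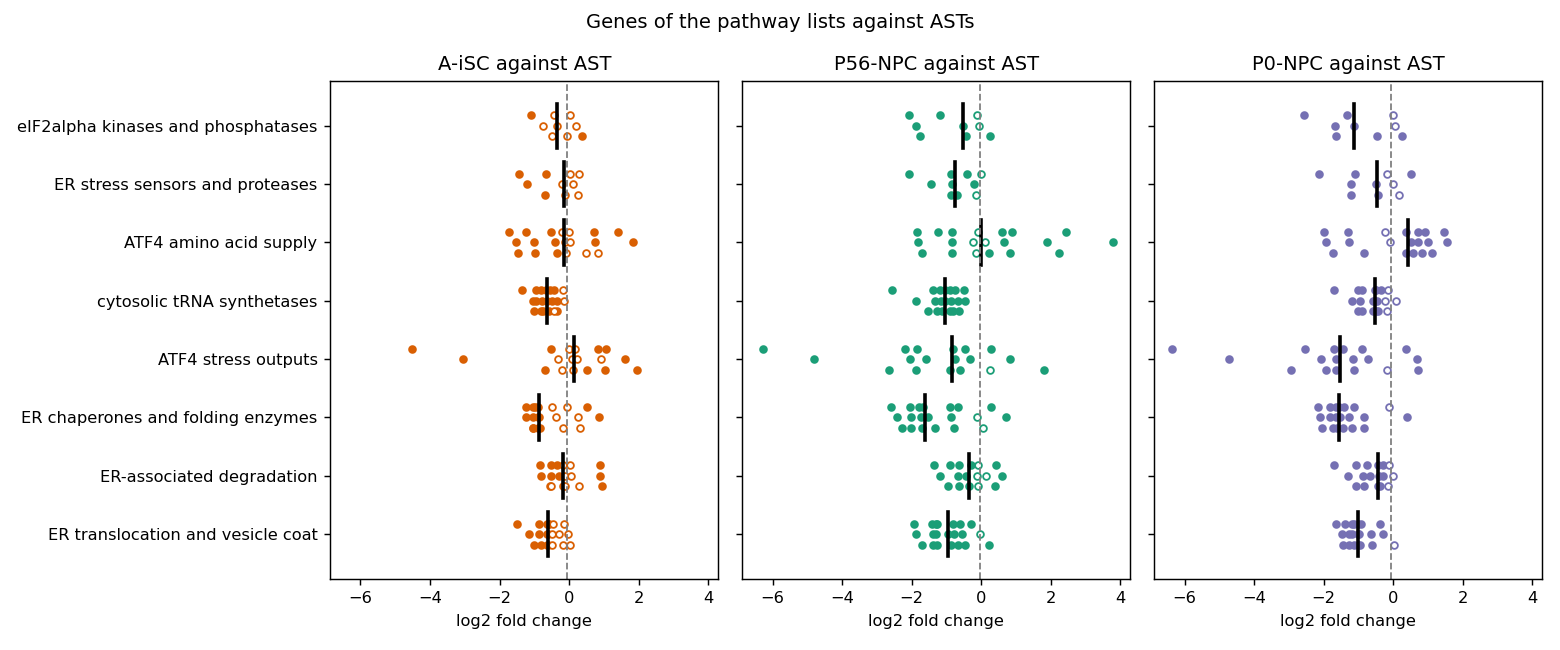
Log2 fold changes against ASTs of the genes of 8 pathway lists in A-iSCs, P56-NPCs and P0-NPCs, on log2(FPKM + 1). Each point is a gene, filled where its adjusted p is under 0.05, black bars are list medians and the dashed line is the median over all genes tested. The ER chaperone list has medians of −0.88, −1.61 and −1.55, and the tRNA synthetase list of −0.64, −1.03 and −0.52.

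The cytosolic tRNA synthetases, which charge tRNAs with amino acids, were mostly lower. In A-iSCs 0 were higher and 17 lower of 20 (median −0.64), beside 29.6% of all genes lower, led by Hars (55.5 to 21.2 FPKM, −1.36, adjusted p = 0.000151), Gars (51.2 to 24.4 FPKM, −1.05, adjusted p = 0.000783) and Rars (48.3 to 23.5 FPKM, −1.01, adjusted p = 0.000979). In P56-NPCs 20 of 20 were lower (median −1.03), and in P0-NPCs 16 (median −0.52), beside 39.8% and 40.9% of all genes, with Rars the most reduced in each (−2.57 and −1.71). On scaling to a common sum 11 of 20 were called in A-iSCs and 8 in P0-NPCs.

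Of 20 tested genes of amino acid supply, Asns included, 4 were higher and 9 lower in A-iSCs, beside 25.2% and 29.6% of all genes. The cystine transporter Slc7a11 was at 0.987 FPKM in ASTs and 6.10 FPKM after sphere culture (1.83), having passed the filter only through A-iSCs, whereas the transsulfuration enzyme Cth (6.33 to 1.22 FPKM, −1.72, adjusted p = 1.68e-05) and the mitochondrial folate enzyme Mthfd2 (12.6 to 3.90 FPKM, −1.48, adjusted p = 0.000138) fell with Asns. In P56-NPCs 9 were higher and 7 lower, close to the 39.1% and 39.8% of all genes, with the glycine transporter Slc6a9 (0.910 to 25.6 FPKM, 3.78, below 1 FPKM in ASTs), the transaminase Gpt2 (2.43, adjusted p = 1.36e-07) and the serine synthesis enzyme Psat1 (28.5 to 137 FPKM, 2.23, adjusted p = 1.27e-06) as the largest rises. In P0-NPCs 12 were higher and 6 lower, beside 38.1% and 40.9%, and Cth, which passed the filter there only through ASTs, and Mthfd2 were again lower (−1.98 and −1.95). Of the 16 genes of this list at 1 FPKM or more in both groups, 3 were higher and 8 lower in A-iSCs, 6 and 6 in P56-NPCs, and 9 and 5 in P0-NPCs.

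The list of ATF4 stress outputs, 18 tested genes with Ddit3, Trib3, Chac1 and Sesn2 among them, had 6 genes higher and 4 lower in A-iSCs, beside 25.2% and 29.6% of all genes. Gdf15, a secreted stress cytokine, fell from 78.3, 86.6 and 116 FPKM in ASTs (ordered by size) to 1.29, 4.45 and 4.53 FPKM (−4.51, SE 0.35, adjusted p = 4.89e-05), and the proapoptotic Pmaip1 (NOXA) fell from 47.1 to 4.78 FPKM (−3.06, adjusted p = 3.54e-06). Bcl2l11 (BIM), also proapoptotic, rose from 1.49 to 8.55 FPKM (1.94, adjusted p = 3.00e-05), and the transcription factor Atf3 from 7.97, 8.70 and 10.4 FPKM to 21.4, 33.3 and 35.4 FPKM (1.60, SE 0.20, adjusted p = 0.000524). The other higher genes were Ddit3, Cebpb, Cebpg and Gadd45a, and the other lower ones Chac1 and Sesn2, with the limits on Ddit3, Chac1 and Sesn2 given before. The call of Cebpb (1.06, adjusted p = 0.0177) was lost without AST replicate 1 or 3 or A-iSC replicate 1 or 2 (adjusted p = 0.0569 to 0.0652). Without AST replicate 1, 6 of the 18 were called in place of 10. In each suspension 3 were higher and 14 lower, Gdf15 (−6.27 in P56-NPCs, −6.36 in P0-NPCs) and Pmaip1 (−4.82, −4.74) the most reduced, both of them below 1 FPKM there and in the test through ASTs alone. The same applies to Trib3 and Chac1 and, in P56-NPCs, to Bcl2l11. Without the genes that passed through ASTs alone, 3 of 13 were higher and 9 lower in P56-NPCs, and 3 of 14 higher and 10 lower in P0-NPCs, beside 39.8% and 40.9% of all genes lower. These values stand beside the microglia, astrocyte and fibroblast marker sums given before, whose part in them was not tested.

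Genes with the most similar profile over the 12 samples were searched among 12450 protein-coding genes, by the root mean square difference of centred log2(FPKM + 1). For Atf4 they were Eif2b1, a subunit of the exchange factor that phosphorylated eIF2α inhibits (difference 0.132), H13 (0.145) and Trappc1 (0.148), against an SD of Atf4 itself of 0.55. For Ddit3 they were Morn2 (0.190), Tmem205 (0.206) and Pld3 (0.2205), with an SD of 0.76. The nearest genes were Selenon (0.150), Procr (0.150) and Slfn9 (0.159) for Hspa5 and Cyb5r4 (0.0874), Bin3 (0.115) and Sidt2 (0.116) for Xbp1, with SDs of 0.85 and 0.44. Likeness over samples of 4 groups mostly follows the group means, and no test was made.

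Scaling mattered for the direction of the smaller differences. The deposited values already carry a scaling between samples, and bringing samples to a common sum instead shifted the median log2 fold change of all genes by 0.14 for A-iSCs against ASTs, −0.41 and 0.35 for P56-NPCs and P0-NPCs against ASTs, 0.55 and −0.20 for A-iSCs against P56-NPCs and P0-NPCs, and −0.74 for P56-NPCs against P0-NPCs. The share of called genes that were higher went from 46 to 57%, from 49.5 to 34.8%, from 48.2 to 62.7%, from 49.4 to 76%, from 48.3 to 36.9% and from 50.4 to 21.1% in that order. Of the 10 genes, 2 were then higher and 1 lower in A-iSCs than in ASTs, 0 higher and 8 lower in P56-NPCs, and 0 higher and 7 lower in P0-NPCs. Relative to P56-NPCs, 9 were then higher and 0 lower in A-iSCs, and relative to P0-NPCs 7 higher and 1 lower. Between the suspensions, 1 was higher and 6 lower in P56-NPCs.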

How the data were processed

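RNA-seq values of 12 samples (3 per group, grouped by their labels) were analysed. The authors prepared libraries with a NEBNext Ultra kit, sequenced them on an Illumina HiSeq (paired-end) and deposited FPKM per gene for 55862 genes with gene lengths. Whether counting used strand is not given in the sources used here. The submitters' processing notes list Bowtie 0.12.2 and mm8, whereas 54899 of the 55154 identifiers found in GENCODE M21 lay at its GRCm38 positions, which were used. Multiplied by gene length, values were whole multiples of 1 step per sample (100% within 0.05 fragments), so that fragments were recovered, 17077780 to 24452419 per sample. The steps showed that the deposited FPKM had been scaled between samples, by libraries 0.744 to 1.22 times the counted ones. A floor of 3 fragments covers counting error only.

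limma 3.58.1 in R 4.3.3 (lmFit, eBayes with a trend) was run on log2(FPKM + 1) over all genes with a mean of at least 1 FPKM in either of the groups compared, 6 pairs of groups in turn, with Benjamini-Hochberg adjustment over all genes tested and a threshold of 0.05. It was tested on simulated data. A fold change on this scale understates that of low genes. The paper's methods name DESeq2, which works on counts. It was not run on the recovered fragments. The alternatives were 3 other scalings, no filter, a filter at 5 FPKM, a pseudocount of 0.1, a model of all 4 groups, a block for the replicate number and leaving out each sample, and, chosen after the data were seen, limma-voom on the recovered fragments.

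Promoter sequences came from RefSeq (GRCm38.p6). Genes named are the 10 members, the eIF2α kinases, Ern1 and Atf6, up to 4 called genes with the largest absolute change per list and comparison, and the 3 nearest profiles of Atf4, Ddit3, Hspa5 and Xbp1. The ratios, the Ppp1r15a level in A-iSCs and the ERSE-II motif were added after values were seen. The members and lists were chosen with earlier results of these data known. Python 3.11.15 with pandas 2.3.3, numpy 2.4.6 and matplotlib 3.10.9 was used for tables and figures.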

Additional observations from a re-analysis of the deposited data

How the results depend on the processing

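Over the 6 comparisons, the 10 genes gave 859 values under the alternatives, of which 787 kept their direction and their side of the threshold, 46 lost a call, 16 gained one and 10 changed direction. The calls of A-iSCs against ASTs were the least firm. The number of the 10 genes called there, 6, was 3 on scaling to a common sum, 3 without the filter on low values, and 1 to 6 when a single sample was left out (1 without AST replicate 1). A filter at 5 FPKM tested fewer genes, and the number of genes called fell accordingly to 4965 for A-iSCs against ASTs, 7757 and 7544 for P56-NPCs and P0-NPCs against ASTs, 5921 and 6129 for A-iSCs against P56-NPCs and P0-NPCs and 7716 between the suspensions, from 7715, 11956, 11859, 9175, 9876 and 12126.

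Scaling to a common sum turned the direction of Ddit3 (−0.21), Herpud1 (−0.067) and Dnajb9 (−0.44) in P56-NPCs against ASTs, of Herpud1 in P0-NPCs against ASTs (0.27), of Asns in A-iSCs against P0-NPCs (−0.0046) and of Sesn2 (−0.42) and Herpud1 (−0.34) between the suspensions. Upper-quartile scaling turned Dnajb9 in P56-NPCs against ASTs (−0.020). When a single sample was left out, Trib3 in A-iSCs against ASTs ranged from −0.086 (without A-iSC replicate 2) to 0.34, and Asns between the suspensions from −0.16 to 0.020 (without P0-NPC replicate 2). The cause was not tested.

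Of the lists in A-iSCs against ASTs, the eIF2α kinase list gave 6 called genes with all 4 groups in the model, 4 with the replicate block and 1 to 5 when a sample was left out, in place of 2. On scaling to a common sum the tRNA synthetase list gave 11 in place of 17, ER-associated degradation 6 in place of 10 and ER translocation 8 in place of 13. Leaving out a sample gave 6 to 11 for the ATF4 stress outputs, 6 to 11 for ER-associated degradation and 4 to 10 for the cytosolic heat shock list. In P56-NPCs against ASTs the immediate early list gave 6 with all 4 groups in the model in place of 10, and in P0-NPCs against ASTs the tRNA synthetases gave 8 in place of 16 and ER-associated degradation 8 in place of 14 on scaling to a common sum.

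Replicate numbers were checked for pairing. Correlations of same-numbered deviations were −0.409, 0.351 and 0.452 for A-iSCs with ASTs and between −0.145 and 0.1002 for the other pairs of groups, so that the numbers were not taken to pair samples, and in A-iSCs with ASTs only replicate 3 correlated best with its own number. With the replicate block, 57 of 58 values of the 10 genes kept their call, the exception being Herpud1 in A-iSCs against ASTs (adjusted p = 0.0536). Depth limits Trib3 and Chac1 in the suspensions, with as few as 3 and 14 fragments per sample.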

Other observations

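Other stress programmes were read from lists of the same kind. Of 11 targets of p53, 1 was higher and 7 lower in A-iSCs than in ASTs, beside 25.2% and 29.6% of all genes, with a median of −0.98. The lower ones included Ccng1 (275 to 78.6 FPKM, −1.81, adjusted p = 0.000135), the cell cycle inhibitor Cdkn1a (229 to 69.6 FPKM, −1.71, adjusted p = 8.69e-05) and the nuclease Aen (−1.59, adjusted p = 5.84e-05). Sesn1 went the other way, at 6.61 FPKM in ASTs and 16.3, 21.3 and 17.1 FPKM in A-iSCs, P56-NPCs and P0-NPCs, and was the 1 higher gene in each, while Bax, Ei24 and Trp53inp1 were not called in A-iSCs nor Trp53inp1 in P0-NPCs. In P56-NPCs 1 was higher and 10 lower, with Cdkn1a at 10.6 FPKM (−4.35, adjusted p = 1.40e-06) and Eda2r at 0.267 FPKM (−3.56), which passed the filter through ASTs alone (9 of 10 lower without it). In P0-NPCs 1 was higher and 9 lower, with Ccng1 at 9.49 FPKM (−4.72, adjusted p = 1.92e-08) and Phlda3 at 7.28 FPKM (−4.66, adjusted p = 2.23e-08). Of all genes, 39.8% and 40.9% were lower in these suspensions.

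Of 13 cytosolic heat shock genes, 2 were higher and 5 lower in A-iSCs (4 called in place of 7 without A-iSC replicate 2), beside 25.2% and 29.6% of all genes, with Hsp90aa1 down (318 to 160 FPKM, −0.997, adjusted p = 0.00212) and Hspa1a up (1.29 to 3.42 FPKM, 0.93, adjusted p = 0.00618). The small heat shock proteins Hspb8 (199 FPKM in ASTs) and Hspb1 (118 FPKM) were far lower in P56-NPCs (−3.97 and −3.24) and P0-NPCs (−3.48 and −4.53), where 11 and 9 of 13 were lower and 0 higher. Hspa4l in both, and Hspa1a and Hspa1b in P0-NPCs, passed the filter only through ASTs, and without them 10 of 12 and 7 of 10 were lower, beside 39.8% and 40.9% of all genes. Of 10 mitochondrial chaperones and proteases 0 were higher and 6 lower in A-iSCs, beside 29.6% of all genes lower, led by Hspd1 (184 to 65.9 FPKM, −1.48, adjusted p = 0.000490) and Htra2 (−1.21, adjusted p = 8.26e-05). In P56-NPCs 1 was higher and 6 lower with Hspd1 at −1.57, and in P0-NPCs 0 were higher and 8 lower with Dnaja3 at −1.94, beside 39.8% and 40.9% of all genes lower.

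Immediate early genes, which dissociation of tissue is known to induce, were 3 higher and 3 lower of 12 in A-iSCs, near the 25.2% and 29.6% of all genes, with Junb (34.3 to 104 FPKM, 1.54, adjusted p = 0.00181) and Fos (40.2 to 116 FPKM, 1.47, adjusted p = 0.00114) up along with Atf3 and Dusp1 down (94.9 to 23.3 FPKM, −2.04, adjusted p = 0.000394). In P56-NPCs 4 were higher and 6 lower (6 called in place of 10 with all 4 groups in the model), near the 39.1% and 39.8% of all genes, and in P0-NPCs 0 higher and 9 lower, beside 38.1% and 40.9%, with Ier3 (−4.07 and −4.35) and Dusp1 (−1.53 and −2.73) the most reduced in either.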
